A study of Mus musculus with 2 samples.

Results

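The 6 mouse genes Nt5e, Entpd1, P2rx7, Art2b, Cd38 and Adora2a act on extracellular nucleotides and NAD at the cell surface, and their levels were followed in γδ T cells of the liver and the thymus. They were chosen by symbol, with earlier results of these data known, so counts of the 6 against all genes are descriptions. All 6 were among the 27998 genes listed for both libraries. The data are raw UMI counts (unique molecular identifiers, each standing for 1 captured transcript) from 1 hepatic and 1 thymic library of wild type, untreated C57BL/6J mice aged 8 weeks. Mononuclear cells were sorted on CD3e and the γδ T cell receptor, and thymic cells had first been depleted with magnetic beads against CD4 and CD8. How mice were divided between the libraries is not given in the sources used here, since their number is stated for both tissues together. With 1 library per tissue there is no replicate check, so no p-value is printed, and every interval is an exact 95% interval that covers counting error only. Where a count is 0, the limit that 3 UMIs would give is printed beside the exact upper limit.

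ATP and NAD leak from stressed or dying cells and act as danger signals. CD39, encoded by Entpd1, degrades ATP and ADP to AMP, and CD73, encoded by Nt5e, converts AMP to adenosine, which the receptor encoded by Adora2a senses and which restrains T cells. P2X7, encoded by P2rx7, is an ATP-gated channel whose prolonged opening can kill a lymphocyte. ARTC2.2, encoded by Art2b, attaches ADP-ribose from NAD to P2X7 and opens it without ATP, and this is known to kill T cells while they are being isolated, liver T cells among them. CD38 consumes the NAD that ARTC2.2 would use. CD73 is also a marker of γδ T cell maturation, read together with CD24, the product of Cd24a, which is lost as γδ thymocytes mature.

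The genes lie on separate chromosomes apart from P2rx7 and Cd38. In GENCODE M21 (GRCm38, the build named in the submitters' processing notes as mm10), Art2b (ENSMUSG00000030651) spans chr7:101576970-101585600 on the minus strand and Cd38 (ENSMUSG00000029084) chr5:43868553-43912375 on the plus strand. P2rx7 (ENSMUSG00000029468) spans chr5:122643911-122691432, Nt5e (ENSMUSG00000032420) chr9:88327197-88372092, Entpd1 (ENSMUSG00000048120) chr19:40612366-40741602 and Adora2a (ENSMUSG00000020178) chr10:75316877-75334784, all on the plus strand. Art2b has a close copy, Art2a-ps, 16105 bases away, which is not among the listed genes. Of the 50-base windows in the last 500 bases of the 2 annotated Art2b transcripts, 8.0% of 451 were also found in Art2a-ps for the shorter transcript and 0 of 451 for the longer, so a few reads of the copy could have been counted as Art2b. Cd38 overlaps Gm16015 on the opposite strand and Gm16014 on its own strand, Entpd1 overlaps Gm16027, Gm8783 and AC166063.1 and P2rx7 overlaps Mir8115, all on their own strand, and whether reads were shared was not tested.

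The 250 bases before the start sites in the RefSeq promoter table (GRCm38.p6) are printed for Art2b, P2rx7, Cd38, Entpd1 and Nt5e. Adora2a has no entry in that table. P2rx7 and Entpd1 each have 2 starts in the table, and 3′ counts cannot tell them apart. The windows of Art2b, Cd38 and Nt5e, and those at the second starts of P2rx7 and Entpd1, lie inside the gene spans given above. Capitals mark the letters of 5 short motifs searched on both strands: TGTGGT (RUNX), AGGTGT (T-box), GGAAGT (ETS), CTTTGA (TCF/LEF) and TGAGTCA (AP-1).
Art2b, chr7:101581162-101581411, minus strand: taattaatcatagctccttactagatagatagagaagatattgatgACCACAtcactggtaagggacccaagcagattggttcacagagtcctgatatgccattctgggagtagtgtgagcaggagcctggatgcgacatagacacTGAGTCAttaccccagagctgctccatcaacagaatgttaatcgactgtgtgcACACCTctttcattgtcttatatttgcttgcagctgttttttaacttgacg
P2rx7, first start, chr5:122643677-122643926, plus strand: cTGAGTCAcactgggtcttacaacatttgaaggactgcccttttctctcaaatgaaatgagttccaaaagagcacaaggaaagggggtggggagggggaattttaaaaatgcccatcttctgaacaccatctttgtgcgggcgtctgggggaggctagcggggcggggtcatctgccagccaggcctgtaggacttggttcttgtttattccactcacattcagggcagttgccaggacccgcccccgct
P2rx7, second start, chr5:122650133-122650382, plus strand: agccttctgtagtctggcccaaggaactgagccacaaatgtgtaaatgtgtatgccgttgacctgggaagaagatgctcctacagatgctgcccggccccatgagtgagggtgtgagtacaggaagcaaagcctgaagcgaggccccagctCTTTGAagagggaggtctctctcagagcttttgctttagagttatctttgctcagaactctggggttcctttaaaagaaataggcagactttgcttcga
Cd38, chr5:43868559-43868808, plus strand: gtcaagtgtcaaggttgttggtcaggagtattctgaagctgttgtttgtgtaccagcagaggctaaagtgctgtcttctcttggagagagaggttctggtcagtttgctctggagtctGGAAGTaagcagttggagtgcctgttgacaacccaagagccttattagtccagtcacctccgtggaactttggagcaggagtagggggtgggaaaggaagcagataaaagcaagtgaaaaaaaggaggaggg
Entpd1, first start, chr19:40612116-40612365, plus strand: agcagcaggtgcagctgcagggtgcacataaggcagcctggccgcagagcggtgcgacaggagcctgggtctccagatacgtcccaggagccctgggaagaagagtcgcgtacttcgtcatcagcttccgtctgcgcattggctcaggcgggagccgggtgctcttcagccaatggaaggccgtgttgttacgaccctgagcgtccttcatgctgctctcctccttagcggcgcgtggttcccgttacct
Entpd1, second start, chr19:40659520-40659769, plus strand: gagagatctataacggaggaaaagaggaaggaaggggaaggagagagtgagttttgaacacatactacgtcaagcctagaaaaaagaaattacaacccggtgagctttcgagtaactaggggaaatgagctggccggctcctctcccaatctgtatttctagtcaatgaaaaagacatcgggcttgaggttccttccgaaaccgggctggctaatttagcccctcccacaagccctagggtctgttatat
Nt5e, chr9:88327359-88327608, plus strand: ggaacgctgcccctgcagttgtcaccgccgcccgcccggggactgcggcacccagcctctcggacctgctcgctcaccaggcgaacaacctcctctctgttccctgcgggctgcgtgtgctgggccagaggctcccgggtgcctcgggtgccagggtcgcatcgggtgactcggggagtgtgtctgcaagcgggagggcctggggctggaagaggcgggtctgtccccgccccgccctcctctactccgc
The Art2b window held 3 matches, to RUNX 204 bases, AP-1 104 bases and T-box 51 bases before the start. Each P2rx7 window held 1 match, to AP-1 at the first start and TCF/LEF at the second, the Cd38 window held 1 ETS match, and the Nt5e window and both Entpd1 windows held none. Of 32851 windows of the same length in the table, 14% held the RUNX letters, 11.8% T-box, 19.7% ETS, 13.8% TCF/LEF and 4.5% AP-1. Such a match is a description of letters and not a binding site. The Nt5e window was also the richest in G and C, at 72.0%, and that of Art2b the poorest, at 43.2%.

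Cells with 800 to 4000 detected genes and at most 6% mitochondrial UMIs were kept, which left 8075 of 8658 hepatic barcodes (24168037 UMIs, median 2741 per cell) and 4351 of 4541 thymic barcodes (17064752 UMIs, median 3271). These are more cells than the study states it analysed. Both libraries were clustered together, with the 6 genes and the other genes of their pathway kept out of the clustering, and clusters were named from marker genes. The CD3 genes were found in every class at a summed level of at least 909 CPM (UMIs per 1000000), the unit of every level given here. Among markers of other cells, a Kupffer cell list reached 3383 CPM in the 105 hepatic myeloid transcript-like cells, and hepatocyte markers stayed at or under 14.6 CPM in every class. The erythroid list reached 292 CPM in the thymic S1pr1 Cd200 cluster of 1021 cells and 52.6 CPM or less elsewhere. The list of Cd4, Cd8a and Cd8b1 reached 386 CPM in hepatic cytotoxic NK receptor-like cells, with Cd4 at 0. Their part in the results was not tested. Of 60 barcodes found in both libraries, 56 were kept, and leaving them out moved no ratio of the 6 genes outside its interval.

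The thymic cells fell into 2 immature thymic-like clusters and 4 further groups. Immature thymic-like A (1288 cells) was led by Igfbp4, Cpa3, Tox2, Etv5 and Sox13 and immature thymic-like B (1150 cells) by Lars2, Slc35d1 and Tnfsf11. The others were cycling-like cells (531), a cluster led by S1pr1, Cd200 and hemoglobin genes that was left without a cell type name (1021), precursor-like cells (180) and IL-17-like cells (165). Leading genes were read over the cells of both libraries together. Those of the precursor-like cluster, Ly6c2 and Dapl1 among them, thus rest on 1131 hepatic cells beside the 180 thymic ones. Hepatic cells were mostly cytotoxic NK receptor-like (2976), Cd28 Socs2-like (2636), precursor-like (1131), IL-17-like (793) or terminal effector-like (271), with small interferon-like (68) and myeloid transcript-like (105) clusters. The Cd28 Socs2-like cluster carried the heat shock genes Hspa1a and Hspa1b among its leading genes, beside Cd40lg, Ifng and Cxcr3. Few cells of the S1pr1 Cd200 cluster (38) or the cycling-like class (39) were hepatic.

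Over whole libraries, Art2b, Cd38 and Entpd1 were nearly restricted to the liver, P2rx7 and Nt5e were higher there, and Adora2a was close to equal. Art2b had 578 UMIs in the liver, or 23.9 CPM (22.0 to 25.9), and 13 in the thymus, or 0.762 CPM (0.406 to 1.30), a 31.4-fold difference (18.2 to 59.3). Cd38 stood at 51.3 CPM in the liver and 1.76 CPM in the thymus, 29.2-fold apart (20.3 to 43.4). Entpd1 stood at 18.7 and 0.645 CPM, 29.1-fold apart (16.1 to 58.7), from 11 thymic UMIs. These 3 intervals overlap, so the genes could not be ranked by fold.

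P2rx7 was clearly present in both tissues, at 44.0 CPM (41.4 to 46.7) in the liver and 16.5 CPM (14.6 to 18.5) in the thymus, a ratio of 2.67 (2.34 to 3.06). Nt5e stood at 17.8 and 9.20 CPM, a ratio of 1.93 (1.61 to 2.34). Adora2a stood at 62.1 and 53.7 CPM, a ratio of 1.155 (1.063 to 1.255), the smallest of the 6. At least 2-fold higher in the liver were 4 of the 6 genes, against 12.2% of 10773 genes with 50 UMIs or more, and none was at least 2-fold lower, against 17.0%. The median log2 ratio was 3.14 over the 6 genes and -0.21 over all of them. The libraries also differed in Hspa1a, a heat shock gene induced by handling stress, at 1942 CPM in the liver and 4.10 CPM in the thymus, and its part in these differences was not tested.

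**Figure D1:**
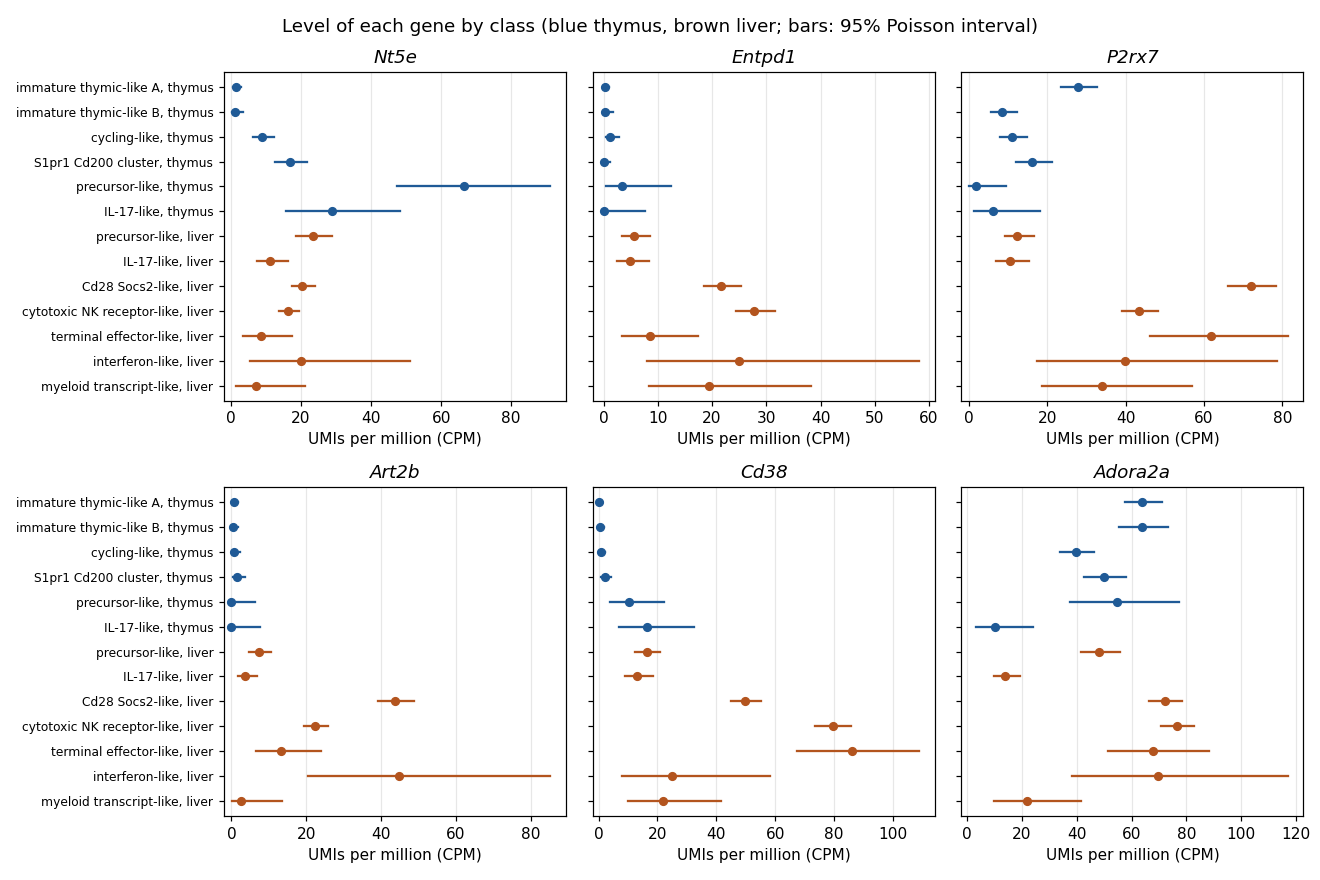
Level of each of the 6 genes in CPM (horizontal axis) in 13 classes (vertical axis), thymus in blue and liver in brown, with points for summed UMIs and bars for exact 95% Poisson intervals. P2rx7, Art2b, Cd38 and Entpd1 are high in the Cd28 Socs2-like and cytotoxic NK receptor-like cells of the liver, Nt5e is highest in thymic precursor-like cells, and Adora2a is at 39.7 to 76.7 CPM in the 9 classes of 150 or more cells other than IL-17-like cells.

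Among hepatic classes, the ATP receptor gene P2rx7 was high in Cd28 Socs2-like, terminal effector-like and cytotoxic NK receptor-like cells and low in precursor-like and IL-17-like cells. It stood at 72.0 CPM (66.1 to 78.3) in Cd28 Socs2-like, 61.9 CPM (46.1 to 81.4) in terminal effector-like and 43.5 CPM (39.2 to 48.2) in cytotoxic NK receptor-like cells. Precursor-like cells had 12.3 CPM (9.02 to 16.4) and IL-17-like cells 10.4 CPM (6.78 to 15.2). The first 2 levels could not be told apart, both were above that of the cytotoxic NK receptor-like cells, and the last 2 could not be told apart either. The small interferon-like and myeloid transcript-like clusters gave 39.9 CPM (17.2 to 78.6) from 8 UMIs and 34.0 CPM (18.6 to 57.0) from 14 UMIs.

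Art2b, the gene of the enzyme that opens P2X7, followed a similar order with a narrower range of classes. Cd28 Socs2-like cells had 43.7 CPM (39.1 to 48.7), cytotoxic NK receptor-like cells 22.3 CPM (19.3 to 25.8), terminal effector-like cells 13.35 CPM (6.66 to 23.9), precursor-like cells 7.23 CPM (4.76 to 10.5) and IL-17-like cells 3.59 CPM (1.64 to 6.82). Among these 5 classes only the first was separated from its neighbour, by 1.96-fold (1.63 to 2.35). The 68 interferon-like cells held 9 UMIs, 44.8 CPM (20.5 to 85.1), and the 105 myeloid transcript-like cells held 1. Terminal effector-like cells thus had P2rx7 near the top of its range and an Art2b level whose interval spanned the values of both precursor-like and cytotoxic NK receptor-like cells.

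The NAD-consuming gene Cd38 had another order, with terminal effector-like and cytotoxic NK receptor-like cells at the top. Terminal effector-like cells had 86.1 CPM (67.3 to 109) and cytotoxic NK receptor-like cells 79.5 CPM (73.6 to 85.8), and these could not be told apart. Of the large classes, Cd28 Socs2-like cells followed at 49.8 CPM (44.9 to 55.0), then precursor-like cells at 16.3 CPM (12.5 to 21.0) and IL-17-like cells at 13.2 CPM (9.06 to 18.5). The small cycling-like, interferon-like and myeloid transcript-like groups had 33.6 CPM (16.1 to 61.9), 24.9 CPM (8.09 to 58.1) and 21.8 CPM (9.98 to 41.4). Set directly against cytotoxic NK receptor-like cells, Cd28 Socs2-like cells had 1.66-fold more P2rx7 (1.45 to 1.90) and 1.96-fold more Art2b, but 0.626-fold the Cd38 (0.550 to 0.711).

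The ectonucleotidase genes differed from each other. Among the large hepatic classes, Entpd1 was highest in cytotoxic NK receptor-like cells, at 27.8 CPM (24.4 to 31.6). It was next in Cd28 Socs2-like cells, at 21.7 CPM (18.5 to 25.3), with the 2 levels apart beyond counting error. It was at 8.49 CPM (3.41 to 17.5) in terminal effector-like, 5.62 CPM (3.48 to 8.59) in precursor-like and 4.79 CPM (2.47 to 8.37) in IL-17-like cells. The small interferon-like and myeloid transcript-like clusters had 24.9 CPM (8.09 to 58.1) from 5 UMIs and 19.4 CPM (8.38 to 38.2) from 8 UMIs. Nt5e varied least among the hepatic classes, from 23.3 CPM (18.7 to 28.7) in precursor-like and 20.4 CPM (17.3 to 23.9) in Cd28 Socs2-like cells through 16.4 CPM (13.8 to 19.4) in cytotoxic NK receptor-like cells to 11.2 CPM (7.42 to 16.1) in IL-17-like and 8.49 CPM (3.41 to 17.5) in terminal effector-like cells. No neighbours in that order differed beyond counting error.

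Adora2a, the adenosine receptor gene, was highest in 3 of the large hepatic classes, lower in precursor-like cells and lowest in IL-17-like cells. It stood at 76.7 CPM (70.9 to 82.8) in cytotoxic NK receptor-like, 72.2 CPM (66.2 to 78.4) in Cd28 Socs2-like, 67.9 CPM (51.3 to 88.2) in terminal effector-like and 48.2 CPM (41.4 to 55.8) in precursor-like cells. IL-17-like cells had 13.97 CPM (9.73 to 19.4), 3.45-fold less than precursor-like cells. The small myeloid transcript-like, cycling-like and S1pr1 Cd200 groups of the liver had 21.8 CPM (9.98 to 41.4), 23.5 CPM (9.47 to 48.5) and 16.9 CPM (2.05 to 61.1). The small interferon-like cluster had 69.8 CPM (38.1 to 117) from 14 UMIs.

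**Figure D2:**
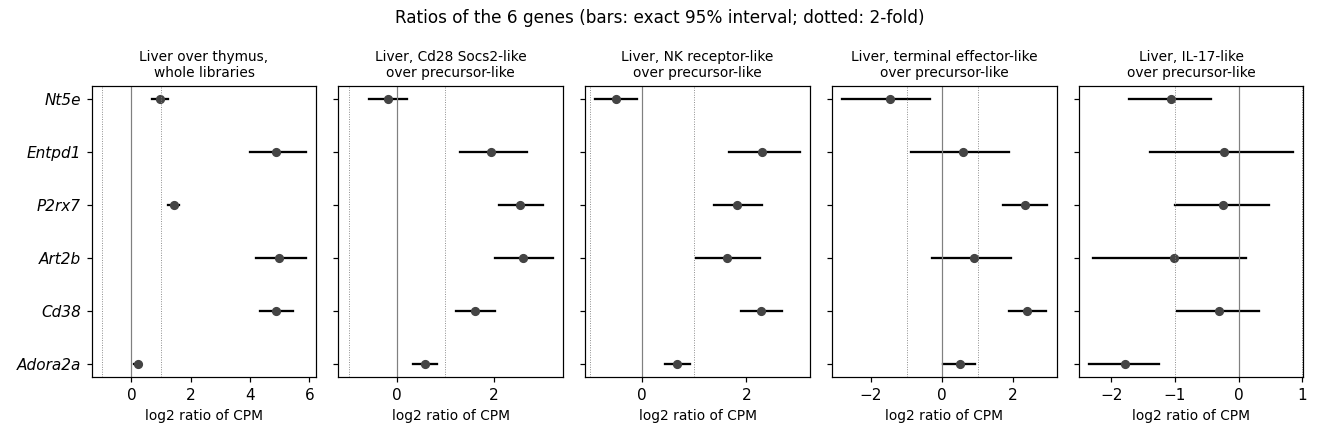
Log2 ratio of the level of each gene (horizontal axis) between whole libraries and between hepatic classes and precursor-like cells, with exact 95% intervals as bars and dotted lines at 2-fold. Entpd1, P2rx7, Art2b and Cd38 lie to the right of the 2-fold line in the first 3 panels, and Nt5e and Adora2a lie to the left of it in the last, with Art2b near it from 36 UMIs in all and an interval that includes equal levels.

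Measured against hepatic precursor-like cells, the same 4 genes passed 2-fold in both large effector classes. In Cd28 Socs2-like cells Art2b was 6.05-fold higher (4.08 to 9.32), P2rx7 5.85-fold (4.32 to 8.08), Entpd1 3.86-fold (2.45 to 6.41) and Cd38 3.05-fold (2.32 to 4.06). That is 4 of 6 genes, against 6.20% of 8259 genes called higher and 2.53% called lower. In cytotoxic NK receptor-like cells Entpd1 was 4.95-fold higher (3.16 to 8.14), Cd38 4.87-fold (3.74 to 6.44), P2rx7 3.53-fold (2.60 to 4.91) and Art2b 3.09-fold (2.06 to 4.82), against backgrounds of 7.83% higher and 3.50% lower. Adora2a was 1.5-fold (1.26 to 1.78) and 1.59-fold (1.35 to 1.89) higher in the 2 classes. The 2 comparisons share their precursor-like cells.

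In terminal effector-like cells, 4 of the 6 genes had the 50 UMIs needed. Cd38 was 5.28-fold (3.69 to 7.55) and P2rx7 5.02-fold (3.31 to 7.65) above precursor-like cells, where 5.76% of all genes were called higher. Nt5e was 2.74-fold lower, where 4.76% were called lower. In IL-17-like cells none of 4 genes was 2-fold above precursor-like cells, against a background of 8.42%. Nt5e (2.09-fold lower) and Adora2a were past 2-fold in the other direction, against 3.78%.

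Hspa1a differed between these classes. It stood at 3031 CPM in Cd28 Socs2-like, 1945 in terminal effector-like and 1810 in cytotoxic NK receptor-like cells. It was 1163 CPM in IL-17-like and 741 CPM in precursor-like cells. Fos and Jun had other orders. Fos was 2579.5 CPM in IL-17-like, 2322 in Cd28 Socs2-like, 1971 in cytotoxic NK receptor-like, 1377 in precursor-like and 1030 CPM in terminal effector-like cells. Jun was 2718 CPM in cytotoxic NK receptor-like, 2538 in Cd28 Socs2-like, 2449 in IL-17-like, 1123 in precursor-like and 835 CPM in terminal effector-like cells. The part of Hspa1a, Fos and Jun was not tested. When the 559 hepatic and 158 thymic cells with the highest doublet scores were removed, P2rx7 in hepatic precursor-like cells stood at 8.57 CPM and Cd38 at 10.9 CPM, and P2rx7 and Art2b in hepatic IL-17-like cells at 6.69 and 1.43 CPM, so the ratios of P2rx7 and Cd38 to these cells became larger.

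In the thymus, Adora2a and P2rx7 were read in both immature thymic-like clusters and in other classes. Nt5e was read mainly outside the immature clusters, and the other 3 genes were close to absent from them. Adora2a stood at 64.0 CPM (57.4 to 71.0) in immature thymic-like A and 63.9 CPM (55.3 to 73.4) in immature thymic-like B, a ratio of 1.00 (0.839 to 1.20). It was 49.9 CPM (42.6 to 58.2) in the S1pr1 Cd200 cluster, 39.7 CPM (33.8 to 46.4) in cycling-like and 54.7 CPM (37.4 to 77.2) in precursor-like cells. Thymic IL-17-like cells had 5 UMIs and 10.3 CPM (3.34 to 24.0), so this class was low for Adora2a in both tissues.

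P2rx7 differed between the 2 immature clusters. It stood at 27.8 CPM (23.6 to 32.6) in immature thymic-like A, from 153 UMIs, and at 8.39 CPM (5.48 to 12.3) in immature thymic-like B, from 26 UMIs, a 3.31-fold difference (2.18 to 5.23). Of the 6 genes 2 had enough UMIs to be read between these clusters, and P2rx7 was past 2-fold, against 2.80% of 7961 genes higher and 2.64% lower. The clusters differed in depth as well, with medians of 4050 and 2584 UMIs per cell. In cells thinned to 1500 UMIs the shares with a P2rx7 UMI were 3.804% (2.83 to 5.00) and 1.22% (0.669 to 2.04). The S1pr1 Cd200 cluster had 16.1 CPM (12.1 to 21.1), cycling-like cells 10.9 CPM (7.94 to 14.7) and the 180 precursor-like cells 1 UMI, or 1.71 CPM (0.0433 to 9.52).

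Nt5e was close to absent in immature cells and highest in precursor-like cells. Immature thymic-like A and B held 12 UMIs between them in 2438 cells, 1.40 CPM (0.721 to 2.44). Cycling-like cells had 8.93 CPM (6.26 to 12.4), the S1pr1 Cd200 cluster 16.7 CPM (12.6 to 21.8), IL-17-like cells 28.8 CPM (15.8 to 48.3) and precursor-like cells 66.7 CPM (47.4 to 91.1), the highest Nt5e level of any class. Precursor-like cells had 3.98-fold more Nt5e than the S1pr1 Cd200 cluster (2.57 to 6.11) and 0.106-fold its P2rx7 (0.00263 to 0.617). Of 3 genes read there, 1 was past 2-fold higher and 1 lower, against 2.87% and 14.5% of all genes.

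Art2b, Cd38 and Entpd1 were near the limit of detection in immature thymic cells. In the 2438 immature thymic-like cells Art2b had 5 UMIs, Cd38 had 2 and Entpd1 had 2. Cd38 was read above this in thymic precursor-like cells, at 10.3 CPM (3.76 to 22.3) from 6 UMIs, and in thymic IL-17-like cells, at 16.5 CPM (7.11 to 32.4) from 8 UMIs. Art2b had 0 UMIs in both of these classes, for which 3 UMIs would give 5.13 CPM in the first and 6.17 CPM in the second, with exact upper limits of 6.305 and 7.59 CPM.

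The precursor-like and IL-17-like classes, found in both tissues, allowed each gene to be compared between liver and thymus within a class. Nt5e was lower in the liver, at 23.3 against 66.7 CPM in precursor-like cells (2.86-fold lower, ratio 0.349, 0.237 to 0.524) and 11.2 against 28.8 CPM in IL-17-like cells (ratio 0.388, 0.198 to 0.797), where over whole libraries it was higher in the liver. P2rx7 in precursor-like cells had 46 UMIs in the liver and 1 in the thymus, a ratio of 7.21 (1.23 to 291). In IL-17-like cells P2rx7 had 26 and 3 UMIs, a ratio of 1.68 (0.515 to 8.68) that could not be told from 1. Art2b in precursor-like cells had 27 UMIs in the liver against 0, at least 1.41-fold higher against a floor of 3 UMIs, with an exact lower limit of 1.07. In IL-17-like cells Art2b had 9 UMIs against 0, with an exact lower limit of 0.383, so equal levels were inside its interval. Cd38 had ratios of 1.59 (0.691 to 4.51) and 0.80 (0.362 to 2.00) in the 2 classes and Adora2a of 0.881 (0.602 to 1.33) and 1.36 (0.530 to 4.44), none distinguishable from 1. Entpd1 had 21 against 2 UMIs in precursor-like cells, a ratio of 1.65 (0.402 to 14.5). In IL-17-like cells Entpd1 had 12 UMIs against 0, with an exact lower limit of 0.539, so equal levels were inside that interval too.

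Only 3 of the 6 genes reached 50 UMIs over the precursor-like cells of both tissues. Among them 1, Nt5e, was past 2-fold lower, against 3.97% of 5822 genes lower and 5.39% higher. In IL-17-like cells none of the 6 reached 50 UMIs, so no count is given against the backgrounds of 6.65% higher and 2.20% lower. For Cd38 and Entpd1 the intervals in precursor-like cells ended below their whole-library ratios of 29.2 and 29.1. For Art2b, with 0 thymic UMIs in either class, the data set no upper bound, so a difference as large as that over whole libraries was inside its interval. Cycling-like cells differed in this respect for Cd38, with 10 UMIs in 39 hepatic cells and 3 in 531 thymic cells, a ratio of 45.2 (11.6 to 255). Hspa1a also differed within these classes, at 741 against 35.9 CPM in precursor-like and 1163 against 72.0 CPM in IL-17-like cells, and its part was not tested.

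CD24 and CD73 stage γδ thymocytes, so Cd24a and Nt5e UMIs were read in the same cells after every cell had been thinned to 1500 UMIs. Cd24a fell from 54.7% of immature thymic-like cells with Cd24a and no Nt5e UMI (52.7 to 56.7), through 51.8% of cycling-like cells and 24.1% of the S1pr1 Cd200 cluster (21.5 to 26.8), to 6.67% of thymic precursor-like cells (3.49 to 11.4). Nt5e without Cd24a was read in 0.246% (0.0905 to 0.536), 0.942%, 2.16% (1.36 to 3.26) and 11.7% (7.37 to 17.3) of the same classes. Cells with both numbered 9 of 4344 in the thymus, 5 of them in the S1pr1 Cd200 cluster, and 1 of 8070 in the liver, so cells with both were rare at this depth. In the hepatic precursor-like cells 3.54% had Cd24a alone (2.54 to 4.79), 3.01% had Nt5e alone (2.09 to 4.18) and 1 of 1129 had both.

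**Figure D3:**
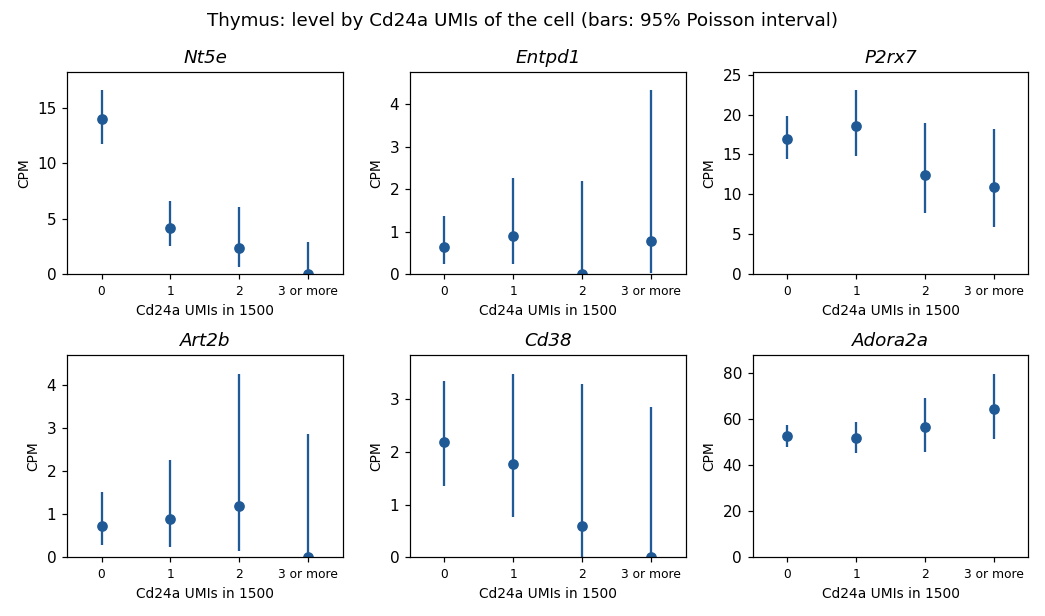
Level of each gene in thymic cells (vertical axis, CPM from all UMIs) by the number of Cd24a UMIs the cell kept after thinning to 1500 UMIs (horizontal axis), with exact 95% Poisson intervals. Nt5e falls from 14.02 CPM in cells with no Cd24a UMI to 0 UMIs in cells with 3 or more, while P2rx7 and Adora2a stay at 10.9 to 18.6 and 51.9 to 64.4 CPM.

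Across thymic cells grouped by Cd24a alone, Nt5e had the steepest gradient. Levels here use all UMIs of the cells. It was 14.02 CPM (11.7 to 16.6) in 2459 cells with no Cd24a UMI, 4.21 CPM (2.54 to 6.57) in 1065 cells with 1, 2.36 CPM (0.643 to 6.05) in 436 cells with 2, and 0 UMIs in 384 cells with 3 or more, which allows up to 2.33 CPM by 3 UMIs, with an exact upper limit of 2.86 CPM. P2rx7 was 16.95 CPM (14.4 to 19.8) and 10.9 CPM (5.94 to 18.2) at the ends of this range, and Adora2a 52.6 CPM (48.1 to 57.4) and 64.4 CPM (51.3 to 79.8), with overlapping intervals. Cd38 was 2.20 CPM (1.36 to 3.36) at one end and 0 UMIs at the other, with the same limits. Immature thymic-like B supplied 65.1% of the cells with 3 or more Cd24a UMIs and 16.9% of those with none.

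In single cells the counts were sparse. Of hepatic cells, 16.6% had an Adora2a UMI, 13.7% Cd38, 11.8% P2rx7, 6.39% Art2b, 5.29% Entpd1 and 4.92% Nt5e before thinning, and 27.4% had a UMI of at least 1 of the 6 genes after it. At 1500 UMIs, P2rx7 was read in 10.4% of Cd28 Socs2-like cells (9.29 to 11.7) and 6.89% of cytotoxic NK receptor-like cells (6.01 to 7.86), against 1.13% of IL-17-like cells (0.520 to 2.14), the lowest of the large hepatic classes, with median depths of 2716, 2691 and 2735 UMIs. Art2b was read in 6.26% (5.37 to 7.25), 3.39% (2.77 to 4.11) and, in this draw, 0 of 793 IL-17-like cells, which allows up to 0.378% by 3 cells, with an exact upper limit of 0.464%. Before thinning 1.135% of these IL-17-like cells had an Art2b UMI. Free RNA was not measured, and its part in these shares was not tested.

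P2rx7 and Art2b were read together about as often as the product of their single shares. In Cd28 Socs2-like cells 275 had P2rx7, 165 had Art2b and 17 of 2636 had both (0.645%, 0.376 to 1.03), where the product of the shares gives 17.2 cells. In cytotoxic NK receptor-like cells P2rx7 and Art2b were each read in the shares given above and 6 of 2975 had both, where the product gives 6.96. Over all hepatic cells 24 of 8070 had both, where the product gives 19.1. P2rx7 with Cd38 was read in 25 Cd28 Socs2-like cells against a product of 17.7, or 0.948% of cells (0.615 to 1.40), and Entpd1 with Nt5e in 9 hepatic cells against 5.77. Counts this small do not tell whether the genes share cells within a class.

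**Figure D4:**
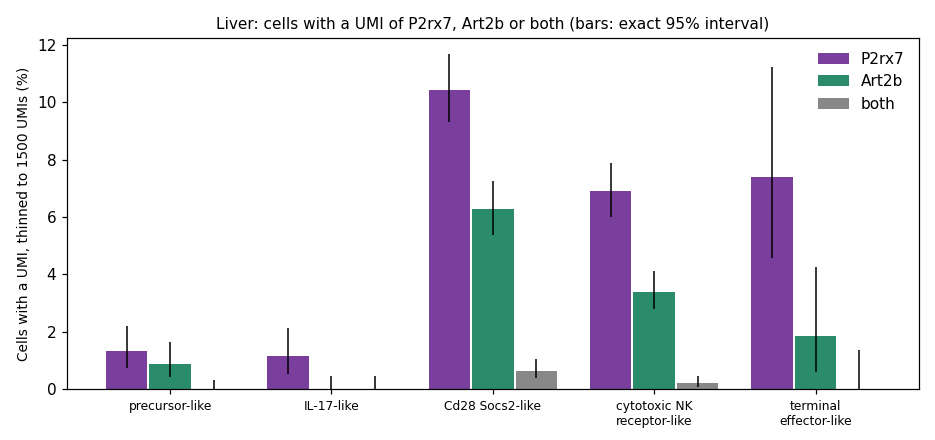
Share of hepatic cells (vertical axis, %) with a UMI of P2rx7, of Art2b or of both after thinning to 1500 UMIs, in 5 classes, with exact 95% intervals as lines. The share with P2rx7 is above that with Art2b in each class, with overlapping intervals in precursor-like cells, and both are read together in 0.645% of Cd28 Socs2-like cells.

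Because P2X7 and ARTC2.2 bear on the survival of isolated T cells, their levels were also set against signs of cell quality. Within Cd28 Socs2-like cells split into 3 equal groups by mitochondrial share (medians 1.52, 1.95 and 2.52%), P2rx7 was 72.7 CPM (62.6 to 83.9), 75.9 CPM (65.7 to 87.2) and 67.2 CPM (57.3 to 78.3), and Art2b 43.4, 45.1 and 42.6 CPM. In cytotoxic NK receptor-like cells split the same way, P2rx7 was 46.1, 44.0 and 40.2 CPM and Art2b 21.1, 24.1 and 21.8 CPM, all with overlapping intervals. Hspa1a in the Cd28 Socs2-like groups fell from 3537 through 2965 to 2570 CPM. Hspa1b in the same groups did not fall steadily, at 406.5, 356.7 and 409.3 CPM. In the cytotoxic NK receptor-like groups Hspa1a was 1897.5, 1925.9 and 1597.2 CPM.

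Hepatic barcodes that failed the filters were few. The 95 with over 6% mitochondrial UMIs had 45.5 CPM P2rx7 (18.3 to 93.8) and 13.01 CPM Art2b (1.58 to 47.0), from 7 and 2 UMIs. The other 488 had under 800 genes, and since 548 hepatic barcodes had so in all, some of the 95 did too. These 488 had 13.9 CPM P2rx7 (6.67 to 25.6) and 9.73 CPM Art2b (3.91 to 20.1), below the 44.0 and 23.9 CPM of kept cells. Cd38 was 22.2 CPM (12.7 to 36.1) there against 51.3 CPM in kept cells, Adora2a 32.0 CPM (20.3 to 48.0) against 62.1 CPM and Entpd1 9.73 CPM (3.91 to 20.1) against 18.7 CPM. The intervals of Entpd1 overlapped, and Nt5e had 22.2 CPM (12.7 to 36.1) against 17.8 CPM. These values are descriptions, because no share over all genes was computed for these barcodes. Their classes are not known, and cells lost before capture leave no barcode. Whether an ARTC2 blocker was used during isolation is not given in the sources used here.

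Of the wider list of 64 genes of nucleotide and NAD metabolism, 62 were listed in the files, 10 had no UMI in either library and 15 reached 50 CPM in a class of at least 50 cells. Without the 6 genes, 28 of the list were read between libraries. At least 2-fold higher in the liver were 5 (Entpd6, Enpp1, Slc28a2, Nmnat2 and Naprt), against the background of 12.2%, and lower were 9 (Dpp4, P2ry14, Ano6, Slc29a1, Slc29a3, Art4, Nmnat1, Nmrk1 and Parp1), against 17.0%. The median log2 ratio of the list was -0.34, and that of all genes -0.21. Against hepatic precursor-like cells, 2 of 21 list genes were higher in Cd28 Socs2-like cells (6.20% of all genes) and 1 lower (2.53%). Cytotoxic NK receptor-like cells had 4 of 22 higher (7.83%) and 2 lower (3.50%). Terminal effector-like cells had 1 of 15 higher (5.76%) and 3 lower (4.76%), and IL-17-like cells 2 of 18 (8.42%) and 1 (3.78%). These comparisons share their precursor-like cells. Slc28a2, a nucleoside carrier, was past 2-fold higher in 3 of the 4 comparisons. Ada, which breaks down adenosine, was so in the 2 with Cd28 Socs2-like and cytotoxic NK receptor-like cells. Past 2-fold higher in 1 comparison each were Entpd7 and Nadsyn1 (cytotoxic NK receptor-like) and Entpd5 and Parp1 (IL-17-like). Dpp4 was past 2-fold lower in 3 comparisons, Nmrk1 in 2, and P2rx4 and P2ry10 in that with terminal effector-like cells.

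Other receptors of the list had their own distributions. P2rx4, a second ATP-gated channel, was 80.0 CPM in myeloid transcript-like cells and 13.35 to 45.1 CPM in the 5 large hepatic classes. P2ry6 was 87.3 CPM in myeloid transcript-like cells and at most 1 UMI in every other class with a level. P2ry10, named as a P2Y receptor but known as a receptor for lysophosphatidylserine, was 179 CPM in immature thymic-like B and 137 CPM over the thymus against 80.3 CPM over the liver. P2ry14, the UDP-sugar receptor, was 66.2 CPM (57.4 to 75.9) in immature thymic-like B and 44.0 CPM (38.6 to 49.9) in immature thymic-like A, with 0 UMIs in thymic precursor-like and IL-17-like cells, the opposite of Nt5e. No UMI of Adora1 was found, and Adora2b and Adora3 had 5 and 6 UMIs in both libraries, so nearly all adenosine receptor UMIs were those of Adora2a.

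Among genes of ATP release, Panx1 was 64.2 CPM in the thymic S1pr1 Cd200 cluster and 36.3 and 39.7 CPM over liver and thymus. Ano6, a scramblase that P2X7 can engage, was 161 CPM (147 to 175) in immature thymic-like B and 90.0 CPM (82.2 to 98.2) in A, the reverse of P2rx7, and 12.7 CPM over the liver. Dpp4, which binds adenosine deaminase in other species, was 58.4 CPM in the S1pr1 Cd200 cluster and 49.2 CPM over the thymus against 13.2 CPM over the liver. The adenosine carrier Slc29a1 peaked in thymic cycling-like cells at 111 CPM, as did Parp1, which uses nuclear NAD, at 98.0 CPM. Nampt, which makes NAD precursor, was 64.8 CPM (34.5 to 111) in interferon-like cells and 14.03 CPM over the liver, and Nadk was 257 CPM in myeloid transcript-like cells.

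The genes whose levels most resembled each member were ranked by Pearson's r of log2(CPM + 10) over 13 class and library combinations of at least 50 cells, among 4274 genes. The combinations share libraries and depth, so the values are descriptions. Art2b was closest to Gpc1 (0.979), Atp8a2 (0.953) and BC017643 (0.945), with Gpc1 one of the leading genes of the Cd28 Socs2-like cluster. Entpd1 was closest to 1810011H11Rik (0.978), Asb2 (0.973) and Pelo (0.957), and Cd38 to Itga1 (0.945), Sipa1 (0.928) and Ccnd3 (0.926). P2rx7 was closest to Sephs2 (0.877), Cdk9 (0.871) and Gm20069 (0.841), Adora2a to Lck (0.922), Arf3 (0.866) and Gimap6 (0.856), and Nt5e to Myl12b (0.827), Ttc39b (0.785) and Med11 (0.771). Among the members themselves, Art2b followed Entpd1 (0.836), P2rx7 (0.773) and Cd38 (0.716). Entpd1 also followed Cd38 (0.775) and P2rx7 (0.723), and Cd38 followed P2rx7 (0.678). Adora2a had values from -0.089 to 0.499 with the other members. Nt5e followed none of the other 5, with values from -0.299 to 0.256.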

How the data were processed

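Single-cell libraries (3′ chemistry) were made from 1 hepatic and 1 thymic sort. The authors deposited raw counts of UMIs per gene and cell barcode, without normalization; the submitters' processing notes name Cell Ranger, Seurat 3.0 and mm10. Kept cells (thresholds in the report) of both tissues went through 1 log-normalization and clustering with Seurat 5.3.0 (R 4.3.3; 2000 variable genes less the members and pathway list, leaving 1985, 30 principal components, resolution 0.6). A cluster took the name of the marker list with the highest mean log2 ratio, at least 0.5 and leading by 0.2; these limits were set after the clusters were seen, so names are rebuilt and may differ from the study's. Scrublet's automatic threshold (scanpy 1.11.5) marked 0.0124% of hepatic and 0.046% of thymic cells, too few for the caller to have worked, and no cell was removed as a doublet. Levels are summed counts per 1000000 UMIs. Intervals (scipy 1.17.1) are exact Poisson for a level, conditional binomial for a ratio and Clopper-Pearson for a share. Levels need 20 cells. Thinning used seed 11, with 1 random draw per depth for all shares of cells and a separate draw for thinned levels and ratios. Genes were called past 2-fold where the 2 groups together held 50 UMIs or more, leaving out ribosomal-protein and mitochondrial genes. Calls and intervals were also run on counts simulated with Poisson error, the error that the intervals assume. Variation between cells or libraries was not simulated, so that run cannot speak to it. Named genes were the members, the pathway genes of at least 50 CPM, and the 3 genes most like each member; those named by count or stress response were chosen after their values were seen. The members and lists were chosen with earlier results of these data known.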

Additional observations from a re-analysis of the deposited data

How the results depend on the processing

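Of 531 ratios of the 6 genes recomputed under 12 planned and 3 added alternatives (chosen after seeing the data: without shared barcodes, without myeloid transcript-like and B cell-like cells, and with another thinning draw), 518 stayed inside their own 95% interval and none reversed. Thinned to 1500 UMIs, the whole-library log2 ratio of Entpd1 was 6.98 in the first draw, which left 1 thymic UMI, and 4.61 in the other, which left 5, so thinning does not fix this value. In the other draw the whole-library log2 ratios of Nt5e and P2rx7 were 0.61 and 1.63, and those over precursor-like cells 3.08 for P2rx7 in Cd28 Socs2-like cells and 2.42 for P2rx7 and 0.94 for Adora2a in cytotoxic NK receptor-like cells. A total without mitochondrial and ribosomal-protein genes moved the whole-library log2 ratio of Adora2a to 0.06 and its ratio of cytotoxic NK receptor-like over precursor-like cells to 0.36. Removing the highest doublet scores moved the log2 ratios over precursor-like cells of P2rx7 to 3.07 in Cd28 Socs2-like and 2.30 in cytotoxic NK receptor-like cells, and of Cd38 to 2.21, 2.86 and, in terminal effector-like cells, 3.00. At a fold of 1.5, 2019 genes were called higher and 3389 lower in the liver. The causes were not tested. Of 1254 levels, 82 moved, 35 of them with the total without mitochondrial and ribosomal-protein genes and 20 and 15 with the thinning draws. Shares of cells depended on depth by construction. Thinned to 1000 UMIs and unthinned, Cd24a without Nt5e was read in 44.3 and 74.3% of immature thymic-like cells and 17.1 and 36.0% of the S1pr1 Cd200 cluster, both in 0.0460 and 1.29% of thymic cells, and P2rx7 with Art2b in 0.161 and 1.14% of hepatic and 0.341 and 2.47% of Cd28 Socs2-like cells. Nt5e without Cd24a was read in 6.67% of thymic precursor-like cells at 1000 UMIs. Resolution 0.4 gave 1 immature thymic-like cluster, both thinning draws left no thymic P2rx7 UMI in precursor-like cells, and the first left no Nt5e UMI in terminal effector-like cells, so these ratios have no value there. No paired analysis was possible because each tissue has 1 library.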
